A study of Homo sapiens with 4 samples.

Results

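The cytosolic ribosomal protein genes encode the proteins that, together with ribosomal RNA, build the ribosome of the cytoplasm. They were taken from the gene table as the rows named RPL or RPS followed by a number with or without a closing A or X, plus RPLP0, RPLP1, RPLP2 and RPSA, with a mean level above 0. This gave 77 of 41507 genes, of which 46 encode proteins of the large (60S) subunit and 31 proteins of the small (40S) subunit. All 77 rows with such a name had a value. The RNA came from SU-DHL-5 and Toledo, established cell lines of diffuse large B-cell lymphoma (DLBCL). Each line was exposed for 6 h, by the labels, either to 1 µM JQ1, a small molecule that displaces BET bromodomain proteins from acetylated chromatin, or to its vehicle DMSO. The design asks which transcripts change when BET proteins are inhibited in each line.

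Each of the 4 conditions was 1 sample, sequenced as 2 libraries from a stranded mRNA kit. What separates the 2 libraries of a sample is not given in the sources used here, so they were averaged and n = 1 per condition. No p-value is given, and the value of each library stands beside the ratios instead. Levels are in RPKM, reads scaled to gene model length and to library depth. A gene is called higher or lower when both libraries of a condition lay above or below both libraries of the other, and a second, stricter call asks in addition for a log2 ratio of means of at least 0.32 in size.

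Most ribosomal proteins are needed in equal numbers, and the genes of ribosomal proteins are strongly expressed in growing cells. Their mRNAs carry a 5′ terminal oligopyrimidine (TOP) tract, a cytosine at the cap followed by an uninterrupted run of pyrimidines, through which the growth-regulating kinase mTOR controls their translation. In lymphoid cells the transcription factor MYC, whose own gene is a known target of BET proteins, promotes the making of ribosomes, and several ribosomal protein genes are mutated or deleted in leukaemias or in the inherited anaemia named after Diamond and Blackfan.

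RefSeq start sites (GRCh38.p14) were matched for 62 of the 77 genes, and 52 of these had 1 start entry. Of these 52, 40 (76.9%) began with a cytosine followed by at least 4 more pyrimidines, and counted by entry, 46 of the 77 start entries of these genes (59.7%) did, against 1429 of all 35116 start entries (4.07%). The windows of 30 bases below hold 15 bases before the start and 15 from the start on, on the strand of the gene, and capitals mark the pyrimidine run from the start. They are shown for a chosen part of the genes with 1 start entry, most of them at the extremes of level, JQ1 ratio or difference between the lines. RPS28 and RPL17, also at such extremes, each had 1 start entry without such a run and are not shown. The windows therefore hold the run more often than the 52 genes did.
RPS18, chr6:33272060-33272089, plus strand: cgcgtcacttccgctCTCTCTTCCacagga
RPLP1, chr15:69452803-69452832, plus strand: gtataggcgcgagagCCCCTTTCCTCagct
RPL36, chr19:5690280-5690309, plus strand: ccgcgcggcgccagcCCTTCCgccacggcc
RPL12, chr9:127451392-127451421, minus strand: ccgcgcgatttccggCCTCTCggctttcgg
RPLP0, chr12:120201097-120201126, minus strand: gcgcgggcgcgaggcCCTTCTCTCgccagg
RPL28, chr19:55385917-55385946, plus strand: tcgcccctcgccttcCTCTTTCCgtctcag
RPL29, chr3:51995881-51995910, minus strand: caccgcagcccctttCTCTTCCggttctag
RPL21, chr13:27251543-27251572, plus strand: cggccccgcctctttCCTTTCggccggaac
RPL22, chr1:6199581-6199610, minus strand: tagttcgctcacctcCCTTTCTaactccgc
RPL39, chrX:119791616-119791645, minus strand: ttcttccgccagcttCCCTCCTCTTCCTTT
RPS26, chr12:56041903-56041932, plus strand: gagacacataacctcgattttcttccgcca

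The run reached 19 pyrimidines in RPL39, the last 4 of them beyond the window, and it was 6 in RPL36, RPL12 and RPL21. RPS26 has a guanine at this annotated start and no capitals, though a pyrimidine stretch follows a few bases on. In windows of 300 bases (250 before the start and 50 from it), read on both strands, CCGGAAG, a core that ETS factors bind, was in 26 of the 77 start entries of these genes (33.8%) against 10.3% of all start entries. CACGTG, the E-box that MYC binds, was in 4 of the 77 (5.19%) against 7.26%, and TATAAA in 5 (6.49%) against 11.5%. Each match is a description of the letters in the window.

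The libraries were of similar depth, with 14617583 to 17679831 mapped reads, and no ribosomal protein gene had fewer than 6513 reads in a library. For most of these genes counting error was therefore small beside the gap between the DMSO libraries of Toledo. Where the 2 libraries of a sample lay close, as for RPL22 in SU-DHL-5 with JQ1, it was not. HEXIM1, a gene that BET inhibitors raise, was in SU-DHL-5 at 4.35 and 3.89 RPKM with DMSO and 22.4 and 22.9 RPKM with JQ1. In Toledo HEXIM1 was at 4.04 and 3.94 against 23.9 and 24.5 RPKM. MYC, chosen with HEXIM1 as a check of the treatment, was lower with JQ1 in SU-DHL-5, while its libraries overlapped in Toledo (values below). All 7 B lymphocyte markers, among them CD79A, had a mean of at least 1 RPKM in each condition, with sums of 942 to 1057 RPKM with DMSO and 651 to 658 RPKM with JQ1 in SU-DHL-5, beside 949 to 1004 against 626 to 642 RPKM in Toledo. The sums over T lymphocyte, myeloid, and stromal and epithelial markers, 4 genes each, were at most 2.72 RPKM in a library, CD2, EPCAM and KRT18 were listed at 0 throughout, and the part of these markers in the results was not tested.

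One library stood apart for these genes. In the DMSO sample of Toledo, library 2 was below library 1 for all 77 genes, with a median log2 ratio of -0.27 and a range of -0.44 to -0.02. Over all 9521 genes with a mean of at least 1 RPKM, the median of the same ratio was 0.09, and across these genes it went up with the length of the gene model (Spearman's rho of 0.61, where the genes share the libraries and are not replicates). The other pairs were closer. The median of library 2 over library 1 was 0.10 for SU-DHL-5 with DMSO (higher for 72 of 77), -0.05 for SU-DHL-5 with JQ1 and -0.02 for Toledo with JQ1. Every ratio that uses the DMSO sample of Toledo therefore depends on which of its libraries is taken, and the medians over the 77 genes are given with both below.

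**Figure D1:**
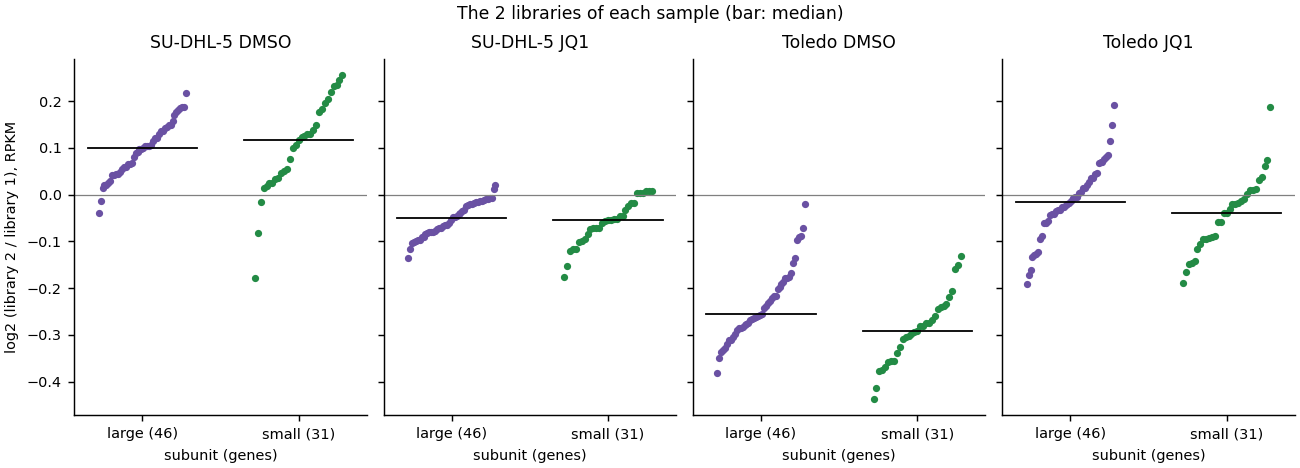
Log2 ratio of RPKM in library 2 over library 1 of each sample (y axis), for each gene of the large (46) and small (31) subunit (x axis, points sorted by value, bar at the median). In the DMSO sample of Toledo all 77 points lie below 0, around medians of -0.26 and -0.29.

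Ribosomal protein genes were among the most abundant transcripts of both lines. Together the 77 genes held 34.7% to 36.3% of the summed RPKM of all genes in the 4 libraries of SU-DHL-5 and 38.9% to 45.5% in those of Toledo. RPKM are relative to the mapped reads of a library, so a change in the number of cells of a kind and in RNA per cell cannot be told apart. As reads, the 77 genes took 16.9% to 17.9% of the reads on genes in SU-DHL-5 and 19.6% to 24.5% in Toledo. With JQ1 the share of summed RPKM was 36.3% and 35.3%, against 34.7% and 36.1% with DMSO, in SU-DHL-5, where the libraries overlapped. In Toledo it was 45.5% and 44.7% against 43.2% and 38.9%, so the JQ1 libraries were the higher ones, while the 2 DMSO libraries differed from each other by more than the higher of them differed from JQ1.

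The level of single genes spanned a wide range around a median of 2795 RPKM over the 8 libraries. The highest was RPS18, a protein of the head of the small subunit, which SU-DHL-5 held at 8285 and 8423 RPKM with DMSO and 9169 and 8878 RPKM with JQ1, and Toledo at 10010 and 7821 RPKM against 10757 and 9702 RPKM. Next came RPLP1, an acidic protein of the stalk that recruits elongation factors, with a mean of 5848 RPKM, RPL39 of the exit tunnel with 5823 RPKM, RPL41, which encodes a very short peptide, with 5594 RPKM, and RPS2 with 5562 RPKM. The lowest was RPL22, an RNA-binding protein of the large subunit whose gene is lost in some T-cell leukaemias. RPL22 had 211 and 241 RPKM with DMSO and 215 and 214 RPKM with JQ1 in SU-DHL-5, and 391 and 385 against 396 and 406 RPKM in Toledo. Toledo was thus above SU-DHL-5 for RPL22 in every library.

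The other low genes were RPL28 (335 RPKM), RPL36A (355 RPKM), RPL31 (454 RPKM) and RPS24 (478 RPKM). For some low genes, such as RPL28, the low value goes with a long gene model. A long model did not always go with a low value, as RPL13 with 4726 bases had a mean of 2034 RPKM. RPL28 has a model of 5488 bases, while 88.2% to 89.5% of its summed transcript RPKM was on a transcript of 669 bases with 1171 to 1991 RPKM. Over all its transcripts the sum was 5.35 times the gene value, and for 17 of the 77 genes, 6 of them among the lowest 10 by gene value, it was over 1.5 times. A comparison of levels between genes is therefore tied to the length chosen for each. In a ratio of 1 gene between samples that length cancels. Such ratios can still go with gene model length, as those between the DMSO libraries of Toledo did.

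**Figure D2:**
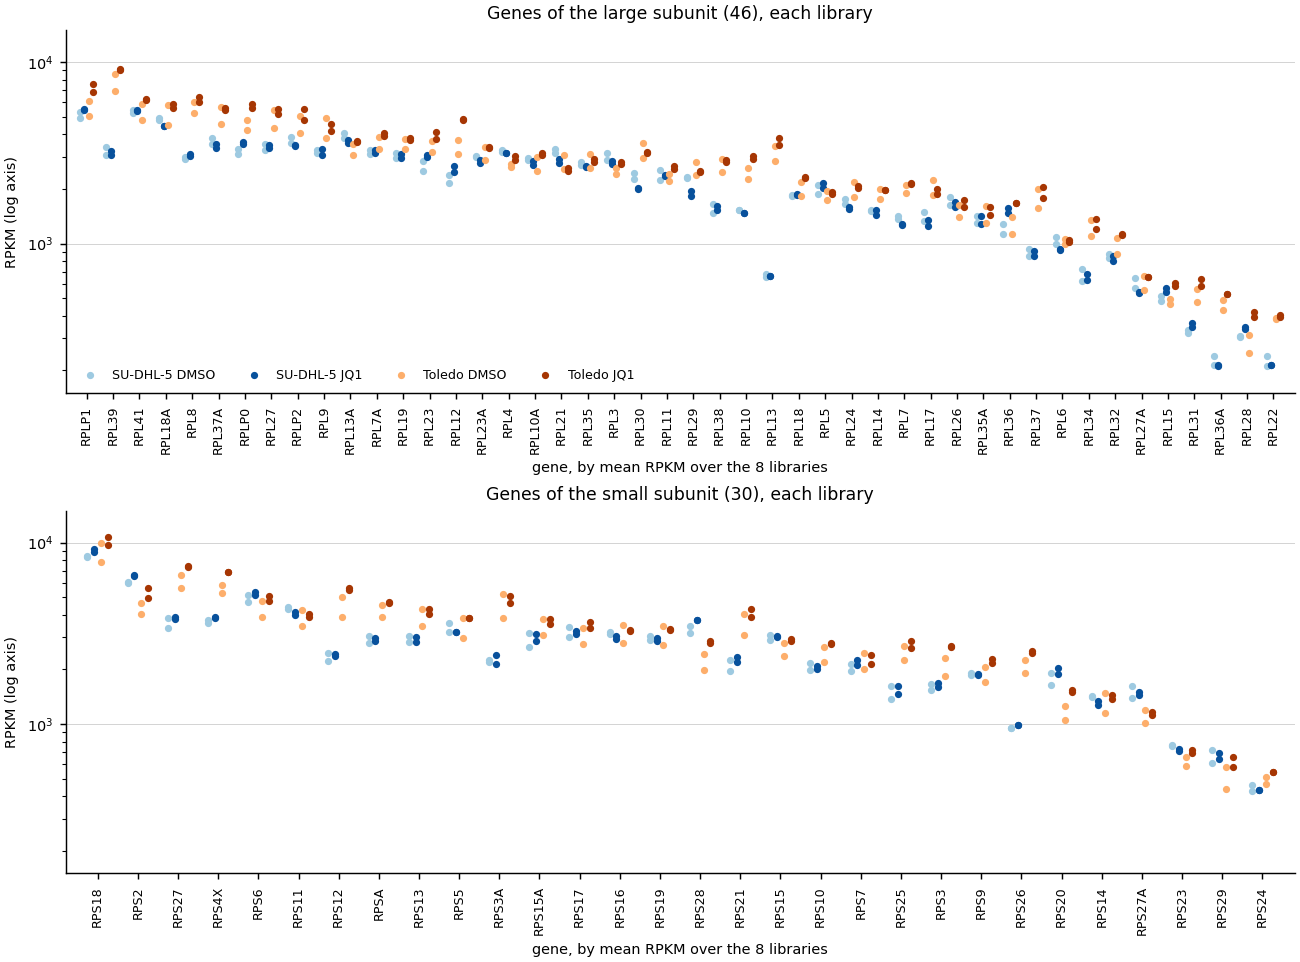
RPKM of each gene in each of the 8 libraries (y axis, log scale), with 46 genes of the large subunit above and 30 of the small subunit below, ordered by mean level (x axis), 1 small subunit gene not being shown. RPS18 is highest at 7821 to 10757 RPKM, and RPL13, RPL39 and RPS26 show the widest steps between SU-DHL-5 (blue) and Toledo (orange).

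With JQ1, the ribosomal protein genes of SU-DHL-5 moved little. The median log2 ratio of JQ1 over DMSO was -0.01 (SD across genes 0.11, from -0.29 to 0.34), beside a median of 0.01 and an SD of 0.59 over the 9521 genes of at least 1 RPKM. Of the 77 genes, 15 were higher in both JQ1 libraries, where 41.1% of genes of at least 1 RPKM and 32.3% of the 650 genes of at least 100 RPKM were so called, and 21 were lower, where 37.3% and 46.2% were. Only RPL36 passed the stricter call, and it was higher, against 22.1% of genes of at least 1 RPKM called higher and 21.9% called lower by that rule. The sign of the median depended on the library, since it was 0.05 against DMSO library 1 alone and -0.07 against library 2 alone.

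RPL36 (chr19:5690261-5691667), a protein of the large subunit, had 1123 and 1277 RPKM with DMSO and 1562 and 1479 RPKM with JQ1. Both JQ1 libraries were higher, by a log2 ratio of 0.34 (counting interval 0.32 to 0.36, which is exact at 95% and covers counting error only). RPL12, which forms the base of the stalk, had 2156 and 2384 RPKM against 2661 and 2488 RPKM (log2 ratio 0.18). For both of these genes the JQ1 libraries lay above the DMSO libraries. RPL23, at the interface of the subunits, and RPS28, near the exit of the mRNA channel, both had a log2 ratio of 0.17 with libraries apart.

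At the other end stood RPL29 (chr3:51993628-51995942), a basic protein of the large subunit also known to bind heparan sulfate, with 2298 and 2331 RPKM in the DMSO and 1952 and 1824 RPKM in the JQ1 libraries. Both JQ1 libraries were lower, by a log2 ratio of -0.29 (counting interval -0.31 to -0.27). RPL30, which is known to bind its own RNA in yeast, had 2261 and 2460 RPKM against 2037 and 1988 RPKM (log2 ratio -0.23). RPL21 had 3140 and 3318 RPKM against 2934 and 2776 RPKM (log2 ratio -0.18). RPL27A and RPL6 followed with log2 ratios of -0.17 and -0.16, and in all of these genes the JQ1 libraries lay below the DMSO libraries.

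In Toledo the same comparison gave higher values with JQ1 for most of the genes. The median log2 ratio was 0.15 (SD across genes 0.13, from -0.14 to 0.52), beside -0.06 over the genes of at least 1 RPKM. Both JQ1 libraries were above both DMSO libraries for 41 of the 77 genes, where 29.3% of genes of at least 1 RPKM and 28.6% of genes of at least 100 RPKM were so called, and below for none, where 42.9% of genes were so called at either level. By the stricter call 8 were higher, against 16.8% of genes of at least 1 RPKM, and none were lower, against 28.9%. The size of the shift rests on the DMSO libraries described above, as the median was 0.04 against DMSO library 1 alone and 0.29 against library 2 alone.

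The 8 genes of the stricter call were RPL28, RPL12, RPL36, RPS20, RPLP1, RPS3, RPS28 and RPLP0. RPL28, a large subunit protein with no counterpart in budding yeast, had 315 and 250 RPKM with DMSO and 395 and 417 RPKM with JQ1 in Toledo, a log2 ratio of 0.52. RPL12 had 3724 and 3107 RPKM against 4842 and 4826 RPKM (log2 ratio 0.50), and RPL36 had 1393 and 1133 RPKM against 1675 and 1669 RPKM (log2 ratio 0.40). In all of them the lower JQ1 library was above the higher DMSO library. RPS20, of the head of the small subunit, had 1261 and 1047 RPKM against 1538 and 1497 RPKM (log2 ratio 0.40). RPS3, which lines the entry of the mRNA channel, had 2320 and 1851 RPKM against 2669 and 2688 RPKM (log2 ratio 0.36).

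The stalk proteins differed among themselves. In Toledo RPLP1 had 6143 and 5039 RPKM with DMSO and 6852 and 7594 RPKM with JQ1 (log2 ratio 0.37), and RPLP0, to which the other stalk proteins bind, had 4803 and 4247 RPKM against 5618 and 5888 RPKM (log2 ratio 0.35). RPLP2, the partner of RPLP1, had 5077 and 4093 RPKM against 4823 and 5506 RPKM (log2 ratio 0.17), and its libraries overlapped. In SU-DHL-5 the log2 ratios were 0.10 for RPLP1 and 0.16 for RPLP0, both with higher JQ1 libraries, and -0.09 for RPLP2, with lower JQ1 libraries.

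The 5 genes with the lowest ratios in Toledo also had ratios below 0 in SU-DHL-5. RPL21 had 3087 and 2567 RPKM in the DMSO and 2615 and 2515 RPKM in the JQ1 libraries (log2 ratio -0.14), and RPL17, near the exit tunnel, had 2241 and 1862 RPKM against 1993 and 1867 RPKM (log2 ratio -0.09). RPL29, RPL30 and RPL9 had log2 ratios of -0.06, -0.04 and -0.01. The libraries of these 5 genes overlapped in Toledo.

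The 2 lines share no library. Across the 77 genes the log2 ratios of JQ1 over DMSO had a Pearson's r of 0.70 and a Spearman's rho of 0.63. Across the 573 other genes of at least 100 RPKM rho was 0.76. Both JQ1 libraries were higher in both lines for 14 genes, among them RPL8, RPL12, RPL15, RPL23, RPL28, RPL31, RPL36, RPLP0, RPLP1, RPS2, RPS4X, RPS26 and RPS28, and lower in both lines for none. Of the genes of at least 1 RPKM 22.7% were higher and 29.1% lower in both lines, and of those of at least 100 RPKM 19.1% and 32.9%, so the 14 of 77 were near the share of all genes. When each library was divided by the median of the 77 genes in it, a choice made after the data were seen, 14 genes were higher in both lines, 11 of them among those above, and 7 were lower in both, namely RPL6, RPL17, RPL21, RPL29, RPL30, RPL35 and RPS27A. That division centres the 77 genes in each line, so ratios below 0 are built into it. These counts were not set beside all genes scaled in the same way.

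The ratio was above that of SU-DHL-5 in Toledo for 75 of the 77 genes, with RPL5 and RPS7 as the others, and the median difference was 0.17. Of the genes of at least 1 RPKM 36.8% had the higher ratio in Toledo, and of those of at least 100 RPKM 49.1%. Against DMSO library 1 of Toledo alone the ratio was above that of SU-DHL-5 for 50 of the 77 genes with a median difference of 0.06, and against library 2 alone for all 77 with 0.30. The largest differences were those of RPL28 (0.37), RPL10 (0.34) and RPS3 (0.33). RPL10, a late-joining protein of the large subunit whose gene is mutated in T-cell leukaemia, had in SU-DHL-5 1526 and 1541 RPKM with DMSO and 1483 and 1475 RPKM with JQ1, with lower JQ1 libraries (log2 ratio -0.05). In Toledo it had 2606 and 2271 RPKM against 2912 and 3056 RPKM, with higher JQ1 libraries (log2 ratio 0.29). Between the DMSO libraries of Toledo alone, library 2 over library 1, the log2 ratio of RPL10 was -0.20. RPL10 was 1 of 7 genes lower in SU-DHL-5 and higher in Toledo, a pattern that 2.26% of genes of at least 1 RPKM and 3.23% of those of at least 100 RPKM had, while none of the 77 had the reverse, found in 4.79% and 3.54%.

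**Figure D3:**
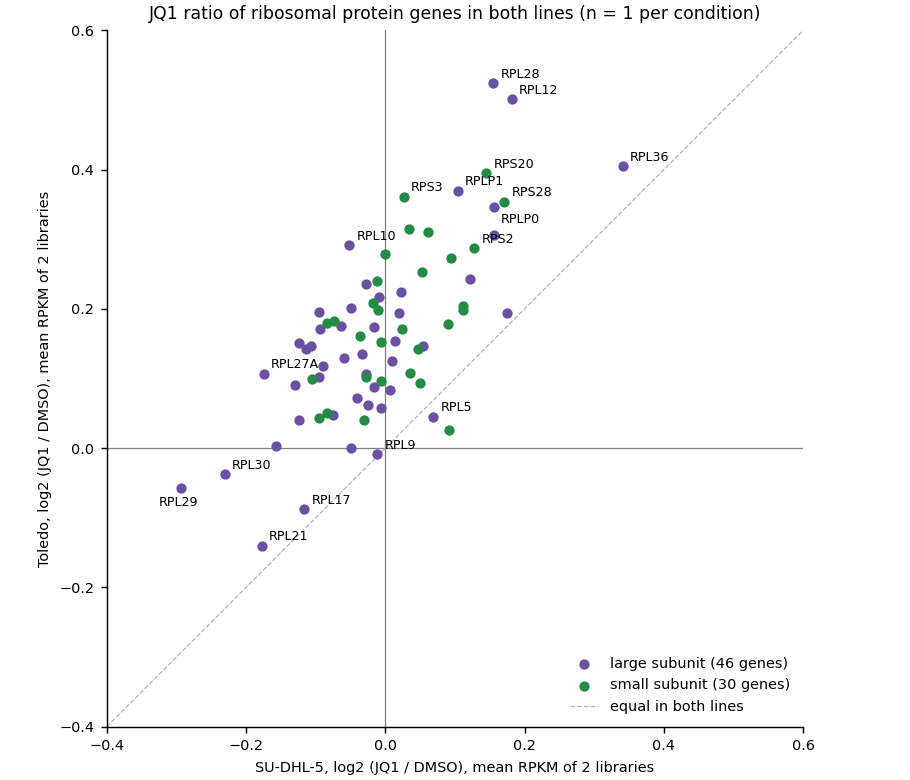
Log2 ratio of JQ1 over DMSO for each gene in SU-DHL-5 (x axis) and Toledo (y axis), from the mean RPKM of 2 libraries per condition (n = 1), with the subunit in colour, the line of equal ratios dashed and 1 small subunit gene not shown. All but RPL5 and RPS7 lie above the dashed line, RPL36, RPL12 and RPL28 lie at the upper right and RPL29, RPL30 and RPL21 at the lower left.

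The medians of the small subunit genes lay above those of the large subunit genes by less than the SD across genes. In SU-DHL-5 the median log2 ratio was 0.03 for the 31 small subunit genes and -0.03 for the 46 large subunit genes, and 17 of the large (37.0%) and 4 of the small subunit genes (12.9%) were lower in both JQ1 libraries, beside the 37.3% and 46.2% of all genes given above, so the share of the large subunit genes was near that of genes of at least 1 RPKM. The ratio of summed RPKM of large over small subunit genes was 1.20 in both DMSO libraries and 1.14 and 1.15 in the JQ1 libraries. In Toledo the medians were 0.18 (small) and 0.14 (large), and the ratio of sums was 1.30 and 1.34 with DMSO and 1.26 and 1.30 with JQ1. In SU-DHL-5 the ratios of sums did not overlap between DMSO and JQ1, and in Toledo they overlapped. The gap between the medians in Toledo, large minus small, was -0.04, and it was -0.02 against DMSO library 1 alone, -0.10 against library 2 alone and -0.00276 after centring on gene model length.

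Genes with other known roles lay near the middle. RPL5 and RPL11, which with 5S RNA bind MDM2 when ribosome assembly fails, stood at log2 ratios of 0.07 and -0.02, with overlapping libraries, in SU-DHL-5. In Toledo RPL5 was at 0.04 with overlapping libraries, and RPL11 at 0.17 with higher JQ1 libraries (2433 and 2214 against 2579 and 2664 RPKM). RPS6, the substrate of S6 kinase, had log2 ratios of 0.09 and 0.18 with libraries that overlapped in both lines. RPSA, also known as the laminin receptor precursor, was at -0.01 in SU-DHL-5, and at 0.15 in Toledo with higher JQ1 libraries. RPS15, which is mutated in chronic lymphocytic leukaemia, was at 0.02 and at 0.17, the latter with libraries apart. RPS27A, made as a fusion with ubiquitin, was at -0.03 and 0.04 with overlapping libraries in both lines.

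The 19 genes of the Diamond-Blackfan list, all of them among the 77, had a median log2 ratio of 0.01 in SU-DHL-5, with 4 higher and 1 lower, and of 0.17 in Toledo, with 10 higher and none lower. Against DMSO library 1 or 2 of Toledo alone the latter median was 0.07 or 0.30. Of all genes of at least 1 RPKM, 41.1% were higher and 37.3% lower in SU-DHL-5, and 29.3% higher and 42.9% lower in Toledo. The list is a part of the 77 genes, whose medians were -0.01 and 0.15, and is not separate from them. RPS19, the gene most often mutated in that anaemia, had 2915 and 3075 RPKM with DMSO and 2989 and 2884 RPKM with JQ1 in SU-DHL-5, and its libraries also overlapped in Toledo (log2 ratio 0.10). By kind of start, the median log2 ratio was -0.01 for the 40 with a pyrimidine start and 0.00 for the 12 others in SU-DHL-5. The corresponding Toledo medians were 0.17 and 0.16. For Toledo DMSO over SU-DHL-5 DMSO the medians were 0.19 for the 40 and 0.02 for the 12. Their ranges were -0.29 to 1.26 and -0.58 to 1.13, and this gap was not tested.

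Vehicle-treated Toledo and SU-DHL-5 differed far more from gene to gene than JQ1 and DMSO did. The log2 ratio of Toledo DMSO over SU-DHL-5 DMSO had a median of 0.13 (SD across genes 0.48, from -0.62 to 2.24), beside -0.01 and an SD of 1.62 over the genes of at least 1 RPKM. Both Toledo libraries were higher for 38 of the 77 genes and lower for 12, where 42.1% and 42.2% of genes were so called, and by the stricter call 29 were higher and 5 lower, where 34.7% and 33.9% were. With library 1 of each line alone the median was 0.32, and with library 2 alone -0.02. Of the large subunit genes 26 were higher and 4 lower (median 0.20), and of the small subunit genes 12 were higher and 8 lower (median 0.08).

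The widest difference was that of RPL13 (chr16:89560657-89566829), a large subunit protein, with 658 and 678 RPKM in SU-DHL-5 and 3456 and 2837 RPKM in Toledo, 4.71-fold higher. With JQ1 it was at 661 and 666 RPKM in SU-DHL-5 and at 3510 and 3802 RPKM in Toledo, so the step between the lines was there in both conditions. The same transcript of 4499 bases held 91.0% to 94.8% of the summed transcript RPKM of RPL13 in every library. RPL39 had 3084 and 3390 RPKM in SU-DHL-5 and 8587 and 6918 RPKM in Toledo (log2 ratio 1.26), and RPS26, which touches the mRNA at its exit, had 957 and 947 RPKM against 2261 and 1917 RPKM (log2 ratio 1.13). RPL36A and RPS3A both had a log2 ratio of 1.02. For all of these genes every Toledo library was above every SU-DHL-5 library of the same treatment.

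Lower in Toledo were RPS20, with 1632 and 1919 RPKM in SU-DHL-5 and 1261 and 1047 RPKM in Toledo (log2 ratio -0.62), RPS28 (3169 and 3457 against 2443 and 1980 RPKM, log2 ratio -0.58) and RPS2 (5965 and 6104 against 4643 and 4022 RPKM, log2 ratio -0.48). RPS27A and RPS29 had log2 ratios of -0.45 and -0.39 with libraries apart. All 5 belong to the small subunit. Toledo JQ1 over DMSO uses the same DMSO libraries as this comparison, so the 2 sets of ratios are not independent.

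**Figure D4:**
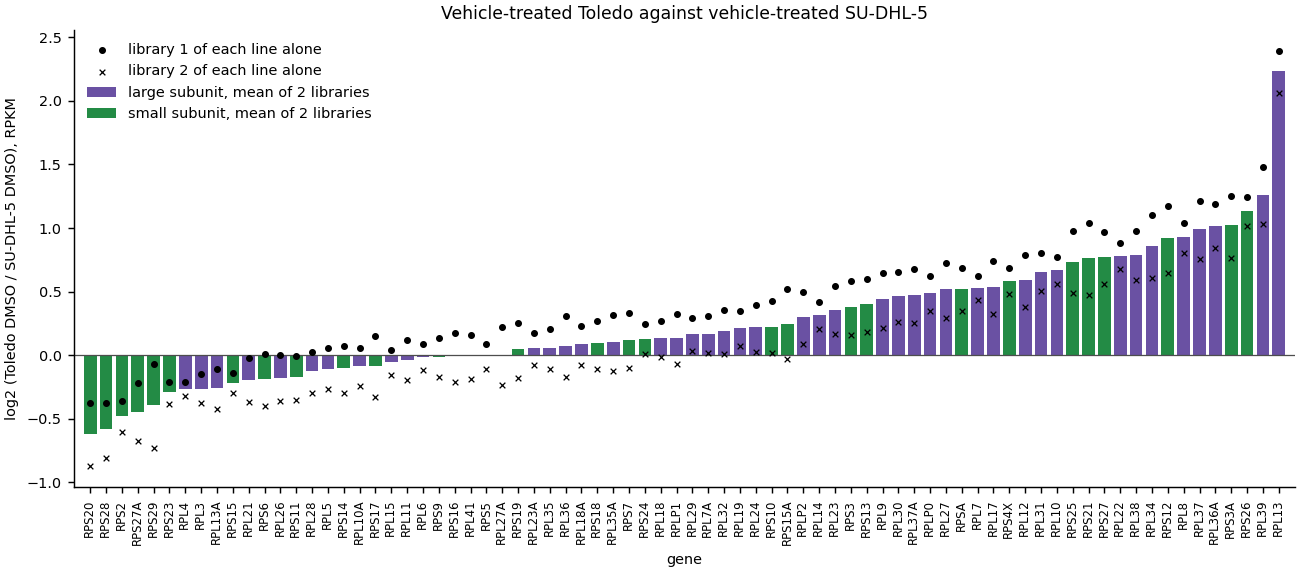
Log2 ratio of Toledo DMSO over SU-DHL-5 DMSO for each gene (x axis, ordered by value), as bars for the mean RPKM of 2 libraries with the subunit in colour, and as points for library 1 and library 2 of each line alone, 1 small subunit gene not being shown. RPL13 stands at 2.24, the 5 lowest bars are small subunit genes, and the values from library 1 lie above those from library 2.

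Ribosomal proteins and paralogs whose names fall outside the rule were set beside their partners. Of 11 such genes 9 had a mean of at least 1 RPKM, and RPL3L and RPL10L, paralogs of RPL3 and RPL10, were listed at 0 in all libraries. RPL22L1, the paralog of RPL22, had 159 and 182 RPKM with DMSO in SU-DHL-5 and 15.1 and 11.7 RPKM in Toledo (log2 ratio of Toledo over SU-DHL-5 -3.66), while RPL22 itself was higher in Toledo (log2 ratio 0.78). RPS27L, the paralog of RPS27 and a known p53 target, had 137 and 159 RPKM against 33.8 and 31.9 RPKM (log2 ratio -2.17), and RPS27 had 3377 and 3818 RPKM against 6628 and 5637 RPKM (log2 ratio 0.77). In both pairs the main gene was higher and the paralog lower in Toledo, and the same order held with JQ1. With DMSO, RPL39L and RPL36AL were also lower in Toledo (log2 ratios -0.36 and -0.69), beside higher RPL39 and RPL36A. The order did not hold for every pair, as RPL7L1 was higher in Toledo (log2 ratio 0.13) and so was RPL7.

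**Figure D5:**
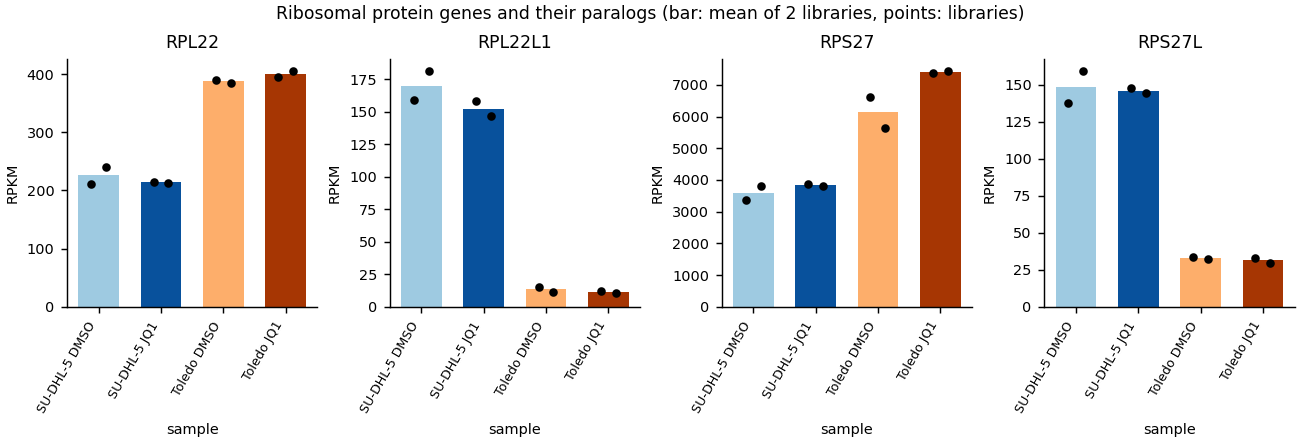
RPKM of RPL22, RPL22L1, RPS27 and RPS27L (y axis, from 0, a scale of its own for each gene) in the 4 samples (x axis), with bars for the mean and points for the 2 libraries. RPL22 and RPS27 are higher in Toledo, and RPL22L1 and RPS27L are higher in SU-DHL-5, with either treatment.

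With JQ1 the 9 genes had a median log2 ratio of -0.16 in SU-DHL-5, with 2 higher and 5 lower, and of -0.06 in Toledo, with 3 higher and 2 lower. Against DMSO library 1 or 2 of Toledo alone the latter median was -0.11 or 0.03. Of all genes of at least 1 RPKM, 41.1% were higher and 37.3% lower in SU-DHL-5, and 29.3% higher and 42.9% lower in Toledo. FAU, which encodes the small subunit protein eS30 fused to a ubiquitin-like protein, had 1692 and 1644 RPKM with DMSO and 1406 and 1444 RPKM with JQ1 in SU-DHL-5 (log2 ratio -0.23). RPL39L, a paralog of RPL39, was lower in both lines, with 183 and 170 against 144 and 144 RPKM in SU-DHL-5 and 152 and 124 against 92.4 and 97.4 RPKM in Toledo. RPL36AL was higher in both lines, with log2 ratios of 0.22 and 0.27.

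The other lists of translation genes are read beside all genes of at least 1 RPKM, of which 41.1% were higher and 37.3% lower in SU-DHL-5, and 29.3% higher and 42.9% lower in Toledo. The 18 translation factors and other TOP mRNAs of at least 1 RPKM, such as EEF2 and PABPC1, had medians close to those of the ribosomal protein genes, -0.03 in SU-DHL-5 (4 higher, 6 lower) and 0.14 in Toledo (11 higher, 3 lower), the latter 0.10 and 0.15 by DMSO library. TPT1, a TOP mRNA of a growth-related protein, had the highest SU-DHL-5 ratio of this list and was higher in both lines. It had 549 and 640 against 854 and 778 RPKM in SU-DHL-5 (log2 ratio 0.46). In Toledo it had 713 and 632 against 893 and 854 RPKM (log2 ratio 0.38). EEF1D, EIF4A2 and PABPC1 of the same list were also higher in both lines. HNRNPA1 (SU-DHL-5 -0.30, Toledo -0.46), NACA (SU-DHL-5 -0.31, Toledo -0.21) and EIF4B (SU-DHL-5 -0.31, Toledo -0.12) were lower in both. The 24 ribosome biogenesis genes act in the making or processing of ribosomal RNA or in the assembly of the subunits. They had a median of -0.37 in SU-DHL-5, with none higher and 21 lower. In Toledo it was -0.25, with 1 higher and 15 lower (-0.24 and -0.27 against DMSO library 1 or 2 alone). BRIX1, needed for assembly of the large subunit, had 53.5 and 54.7 against 31.8 and 32.6 RPKM in SU-DHL-5 and 76.3 and 78.6 against 35.9 and 37.4 RPKM in Toledo. The 75 genes of mitochondrial ribosomal proteins, which build the separate ribosome of the mitochondrion, had medians of -0.15 (17 higher, 45 lower) and -0.31 (8 higher, 62 lower), the latter -0.37 and -0.25 by DMSO library. MYC had 44.1 and 40.9 against 35.2 and 34.4 RPKM in SU-DHL-5, with lower JQ1 libraries, and 40.4 and 44.4 against 44.6 and 42.1 RPKM in Toledo, where the libraries overlapped. By qPCR, the paper reports lower MYC mRNA after JQ1 in its DLBCL lines, SU-DHL-5 and Toledo among them.

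In the transcript table the 77 genes had 156 transcripts, 122 of them with a mean of at least 10 RPKM, and 38 genes had more than 1. Of the 122, 4 were higher and 6 were lower by the stricter call in both lines, where 9.78% and 14.9% of all 5125 transcripts of at least 10 RPKM were so called, so that both counts were below the share of all transcripts. Those described here were chosen from the called ones after their values were seen. RPS24 is known to be spliced in several forms that differ in small exons near the 3′ end. Its transcript RPS24_5 (656 bases) had 132 and 153 RPKM with DMSO and 199 and 203 RPKM with JQ1 in SU-DHL-5, and 270 and 246 against 415 and 382 RPKM in Toledo. Its share of the summed transcript RPKM of RPS24 was 6.31% and 6.71% with DMSO against 9.50% and 9.71% with JQ1 in SU-DHL-5, and 11.0% and 10.8% against 15.8% and 14.4% in Toledo, while RPS24 as a gene had log2 ratios of -0.04 and 0.16. The minor transcript RPL13_4 (4672 bases) had 28.6 and 23.0 against 9.89 and 13.2 RPKM in SU-DHL-5 and 26.4 and 24.0 against 13.0 and 14.3 RPKM in Toledo. How reads were shared out among transcripts is not given in the sources used here.

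Ribosomal protein genes have many processed copies in the genome. The gene table lists 1886 rows named as pseudogenes of the 77 genes, at least 1 for each, and all were listed at 0, so reads from such copies cannot be told apart from those of the genes. The readthrough rows RPL17-C18orf32, RPL36A-HNRNPH2 and RPS10-NUDT3 overlap RPL17, RPL36A and RPS10, and had at most 53.9 RPKM.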

How the data were processed

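RNA of the 4 samples was sequenced by the authors from libraries of a stranded mRNA kit. For 8 libraries the authors deposited a gene table and a transcript table of RPKM values. The submitters' processing notes name CASAVA 2.0 and GRCh38 (hg38). The aligner, the counting and the annotation are not given in the sources used here, nor is whether strand was used, so overlapping and antisense genes, and near-identical copies, are uncertain. The labels give 6 h of treatment and the paper a longer time, and the labels were followed. No reads were processed here.

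Libraries were averaged per sample (n = 1). Ratios are log2((a + 0.1)/(b + 0.1)) of mean RPKM, which understates changes of low genes. The background is the 9521 genes with a mean of at least 1 RPKM. Mapped reads were recovered as the total that most often made the RPKM of single-exon genes whole reads. The length of each gene was then the smallest one that made its 8 values whole within a tolerance of 0.01 reads. For genes with few reads such a length can be shorter than the true one. A length was found for 14942 of 14944 genes with a value. From 94.8% to 95.5% of mapped reads lay on genes. A count test was not run with 1 sample per condition. Intervals are exact binomial intervals of 95% for the share of a gene's reads and cover counting error only. The code was tested on simulated data with known totals and changed genes. File starts count from 0 and are printed from 1.

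The members and lists were chosen with earlier results of these data known. Named genes are the 5 highest and 5 lowest in each comparison and by level, the 3 with the largest difference between lines, a set fixed for role, and the lists of paralogs, TOP mRNAs, Diamond-Blackfan, biogenesis, mitochondrial ribosomal and cell type marker genes. Genes outside this rule are named where a count is spelled out, and were chosen after their values were seen. Some genes are not reported here by name, but remain in the counts and medians. Start sequences are from RefSeq. The alternatives varied the pseudocount, level filter, library, scaling, length correction, table and fold. Tools were numba 0.67.0, scipy 1.17.1, pandas 2.3.3, matplotlib 3.10.9, numpy 2.4.6 and Python 3.11.15.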

Additional observations from a re-analysis of the deposited data

Results flagged for a closer look

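For 7 of the 77 genes the JQ1 libraries were both below the DMSO libraries of SU-DHL-5 and both above those of Toledo, and none of the 77 showed the opposite pattern. Of genes of at least 1 RPKM 2.26% had this pattern and 4.79% the opposite, and of those of at least 100 RPKM 3.23% and 3.54%. The difference of the log2 ratios, Toledo minus SU-DHL-5, was 0.34 for RPL10, 0.24 for RPL10A, 0.26 for RPL13A, 0.25 for RPL3, 0.17 for RPL4, 0.22 for RPL7 and 0.26 for RPS23. These differences were not tested, as there was 1 sample per condition. RPL3, which reaches toward the catalytic centre of the large subunit, had 2880 and 3152 RPKM with DMSO and 2863 and 2737 RPKM with JQ1 in SU-DHL-5, and 2597 and 2429 against 2740 and 2826 RPKM in Toledo. When each library was divided by the median of the 77 genes, 8 genes were lower in SU-DHL-5 and higher in Toledo, but only 3 of them, RPL10A, RPL13A and RPS23, were among these 7, and RPL3, RPL4, RPL7 and RPL10 no longer had both calls. Centring on gene model length gave RPL10 a log2 ratio above 0 in SU-DHL-5 (0.042 in place of -0.05).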

How the results depend on the processing

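Among the named genes whose libraries did not overlap, 4 ratios turned direction. Division by the median of the 77 genes turned RPL22 with JQ1 in Toledo to -0.0614 (from 0.05), and RPL29 and RPS24 between the lines with DMSO to -0.0451 and -0.0781 (from 0.17 and 0.13), and centring on gene model length turned RPL10 with JQ1 in SU-DHL-5 to 0.042 (from -0.05). Of the medians, gaps, counts and shares, 98 of the 109 alternative values stayed within the spread between libraries or, for counts, within 1.5 times. The spread was the SD of the values from library 1 alone and library 2 alone, which were themselves among the values scored. A change of sign within the spread counted as staying within it, so the 98 do not show that a direction held. That spread is wide for the medians. The gap between large and small subunit medians in Toledo, -0.04, was -0.0619 with library 1 alone, -0.0734 with library 2 alone, -0.0236 and -0.102 with DMSO library 1 or 2 alone as control, and -0.00276 after centring on gene model length, and the cause was not tested. After the same centring the large minus small subunit gap of Toledo over SU-DHL-5, both with DMSO, was 0.16 in place of 0.12, and 23 in place of 15 genes were higher with JQ1 in SU-DHL-5. In Toledo 3 genes were lower with JQ1 after scaling to equal sums of RPKM, in place of none. After division by the median of the 77 genes, which by itself puts ratios below 0, 8 genes were lower. A rule of 1.5-fold called 0 genes in either line. The controls by single DMSO library and the division by the median were chosen after seeing the data. No paired analysis was possible because the labels give 1 sample per condition and no replicate numbers, and nothing says that a library number is shared between samples. The libraries matched by number gave median log2 ratios with JQ1 of 0.07 (library 1) and -0.09 (library 2) for SU-DHL-5, and of 0.06 and 0.27 for Toledo. With 1 sample per condition, depth is not the limit for these genes, and the spread between samples is unknown.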
